A study of Mus musculus with 8 samples.

Results

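The 4 genes described here are Runx1, Runx2, Runx3 and Cbfb, which encode the 3 RUNX transcription factors of the mouse and the partner protein they share. Open chromatin at their loci was taken from a table of ATAC-seq counts. A region of that table was assigned to a gene when it lay inside the gene, or within 100 kb of it with that gene's end as the nearest end of any protein-coding gene. This gave 115 of 148664 regions, of which 46 belonged to Runx1, 44 to Runx2, 17 to Runx3 and 8 to Cbfb. In the GRCm38 annotation Runx1 (gene ID 12394) spans chr16:92601466-92826074 and Runx2 (12393) spans chr17:44495987-44814797, both on the minus strand. Runx3 (12399) spans chr4:135120645-135177990 and Cbfb (12400) spans chr8:105170674-105217989, both on the plus strand. Of the 115 regions, 30 lay inside Runx1, 35 inside Runx2, 7 inside Runx3 and 4 inside Cbfb. Supt3, which encodes a subunit of a histone acetyltransferase complex, overlaps Runx2, and 18 of the Runx2 regions were also assigned to it. Signal at those regions cannot be told apart by gene.

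RUNX proteins bind DNA through a Runt domain and recognise the core sequence TGTGGT. CBFB does not bind DNA itself but increases the affinity of each RUNX protein and stabilises it. RUNX1 is required for blood stem cells to form, RUNX2 for bone-forming cells, and RUNX3 for several T cell and sensory neuron lineages. Each Runx gene is transcribed from a distal promoter, P1, and a proximal promoter, P2, which give proteins with different amino ends. RUNX2 and RUNX3 have both been studied in melanoma.

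ATAC-seq uses the transposase Tn5, which cuts and tags DNA where chromatin is accessible. The series profiled 4 mouse melanoma cell lines with 2 libraries each, and its question was how chromatin differs between lines with and without STAT3, a transcription factor downstream of cytokine receptors. Lines 112 and 113 carried the Stat3 knockout genotype (Stat3Δ), and lines 119 and 73 were wild type (called Stat3fl, for a floxed allele). The lines were grown from lymph node suspensions of diseased mice whose cutaneous melanoma began at about 25 to 30 weeks of age, and no treatment was named. The growth protocol calls them pools whereas another label calls each a clone. The driver of the tumours, the Cre that deleted Stat3 and the sex of the mice are not given in the sources used here. Libraries are called r1 and r2 after their replicate numbers. The titles carry a p number, whose meaning is not given, of 18 for line 112, 44 for 113, 14 for 119 and 68 for 73. With 2 lines a genotype, genotype and line identity cannot be told apart. P-values of line pairs measure the spread between libraries of these lines, which may be technical.

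The libraries held 2697546 to 7464336 counts each over all regions. Values are given as CPM, counts scaled to a common library size after the TMM correction for differences in composition between libraries. A level of 3 counts corresponds to 0.384 CPM in the deepest library and to 0.915 CPM in the shallowest. This level allows for counting error only. Since single molecules were not tagged, the counts may also include duplicates. At Stat3 the strongest region at a gene end had 18.1 to 38.4 CPM in the wild-type libraries and 25.6 to 38.2 CPM in the knockout libraries, which does not check the deletion because the deleted part was not stated. The strongest regions at the ends of 9 melanocyte genes (Mitf, Tyr, Tyrp1, Dct, Pmel, Mlana, Sox10, Gpr143 and Slc45a2) summed to 162, 250.9, 77.2 and 125 CPM in lines 112, 113, 119 and 73. The defining pigment genes Tyr and Mlana were at 0.699 and 0.738 CPM in line 119 and at 0.9298 and 0.253 CPM in line 73, near the level of 3 counts, whereas Mitf and Pmel were highest in line 73 (38.7 and 73.8 CPM). Summed over all regions of a gene, 2 of the 9 passed the genotype test, both higher in the knockout lines. These were Dct (1.74 ± 0.46 on the log2 scale, edgeR adjusted p = 0.0163) and Mlana (2.14 ± 0.60, adjusted p = 0.0268). All 9 were above 0, with a median of 1.43 against -0.01 over all genes. Of all 17838 genes 0.712% were called higher, and with a filter at a mean of 50 counts 0 of 15013 genes were called. For 6 of 7 fibroblast genes with such a region the sum was 40.7, 46.2, 34.9 and 166 CPM in lines 112, 113, 119 and 73. For 6 of 11 blood and lymphoid genes it was 25.2 to 40.1 CPM, and Ptprc, Cd3g, Cd2, Cd79a and Cd79b had no region at a gene end. Of the endothelial and keratinocyte lists, 1 of 5 and 1 of 3 genes had a region at a gene end.

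The start regions of the 3 Runx genes share a run of 18 bases, which is printed because it holds 2 copies of the core to which the RUNX proteins themselves bind. The windows compared were those of 250 bases before to 50 bases after the first annotated start (RefSeq, GRCm38.p6). The run begins 26 bases after the start base in Runx1, 21 bases after it in Runx2, and 136 bases before it in Runx3. It was found in 4 of 32851 promoter windows of the mouse, the fourth being the window of a start on the opposite strand that overlaps that of Runx3. Capitals mark matches to the RUNX core on either strand, TGTGGT (read as ACCACA) or TGCGGT, in 30 bases each, 5′ to 3′ along the gene. The stretches lie at chr16:92826025-92826054 (minus strand), chr17:44814583-44814612 (minus strand) and chr4:135120503-135120532 (plus strand).
Runx1 P1: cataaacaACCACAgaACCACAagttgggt
Runx2 P1: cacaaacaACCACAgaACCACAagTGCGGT
Runx3 P1: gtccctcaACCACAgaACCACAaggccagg
TGTGGT was present in 16.8% of all windows and at least 2 copies in 1.81%. TGCGGT, which follows the run in Runx2, was present in 6.45% of windows.

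The P2 starts and the single Cbfb start differ from the P1 starts in base composition, shown by the 150 bases before each start with every CG in capitals. The stretches lie at chr16:92697330-92697479 (minus strand), chr4:135152395-135152544 (plus strand) and chr8:105170524-105170673 (plus strand).
Runx1 P2: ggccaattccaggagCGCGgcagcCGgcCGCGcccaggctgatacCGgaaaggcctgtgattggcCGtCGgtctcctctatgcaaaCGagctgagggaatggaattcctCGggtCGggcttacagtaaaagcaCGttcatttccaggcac
Runx3 P2: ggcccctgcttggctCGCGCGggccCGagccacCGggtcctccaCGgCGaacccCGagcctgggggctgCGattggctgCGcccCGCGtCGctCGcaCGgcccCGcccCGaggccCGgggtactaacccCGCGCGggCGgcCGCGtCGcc
Cbfb start: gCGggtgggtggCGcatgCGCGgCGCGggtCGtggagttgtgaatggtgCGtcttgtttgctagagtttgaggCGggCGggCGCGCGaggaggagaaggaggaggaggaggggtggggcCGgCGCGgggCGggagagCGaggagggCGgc
Over the whole window of 300 bases, the CG count was 35 at Runx1 P2, 45 at Runx3 P2 and 30 at Cbfb. It was 2 at Runx1 P1, 2 at Runx2 P1 and 8 at Runx3 P1, against a median of 7 over all windows. None of the P2 windows or the Cbfb window held TGTGGT or TGCGGT. Of the other motifs searched on both strands, CACGTG (7.15% of windows) occurred once at Runx1 P1, and CATGTG (14.2%) and TTGCNNAA (10.8%) once each at Runx2 P1. GGAATG (14.7%) occurred once at Runx1 P2. TGANTCA (7.81%), TTCNNNGAA (8.30%) and ACAATG (12.6%) occurred in none of the 6 windows. The P2 start of Runx2 was not analysed here.

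Accessibility at the starts followed no single order of the lines. At Runx1 P2 (chr16:92697139-92698119) the libraries had 15.1 and 16.8 CPM for 112, 36.9 and 31.6 for 113, 27.8 and 27.4 for 119, 42.0 and 32.2 for 73. Line 112 was below each other line, by -1.11 ± 0.21 (log2, SE) against line 113 (edgeR adjusted p = 5.78e-05), and peaks covered this start in all 8 libraries. Line 113 did not differ from line 119 (0.31 ± 0.18, edgeR adjusted p = 0.137) or from line 73 (-0.12 ± 0.19, adjusted p = 0.631) by this test. At Runx1 P1 (chr16:92825737-92826306) values were 3.90 and 3.05 CPM for 112, 1.35 and 1.44 for 113, 3.71 and 3.68 for 119, 9.11 and 9.63 for 73. Line 73 was highest and line 113 lowest, each separated from every other line, and peaks reached the window in 3 libraries.

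At Runx2 P1 (chr17:44814433-44815226) values were 2.98 and 1.52 CPM for 112, 10.6 and 10.1 for 113, 2.95 and 3.01 for 119, 18.7 and 17.9 for 73. The high libraries were therefore 1 line of each genotype, lines 113 and 73, and these 4 libraries were also the ones with a peak over the window. They are also the lines with the higher p numbers, 44 and 68, and line and p number cannot be told apart. Line 73 exceeded line 119 by 2.61 on the log2 scale (line 119 over line 73, -2.61 ± 0.29, edgeR adjusted p = 4.94e-11), and line 112 was below line 113 (-2.13 ± 0.37, edgeR adjusted p = 1.90e-05). At the Cbfb start (chr8:105170310-105171035), the most accessible of the 115 regions, values were 38.3 and 31.4 CPM for 112, 59.6 and 54.9 for 113, 30.1 and 37.3 for 119, 58.4 and 67.4 for 73. The same pair of lines was high, and peaks were present in all 8 libraries. This order was not particular to these starts. The gene-end regions of Mitf (24.5, 35.8, 18.6 and 38.7 CPM in lines 112, 113, 119 and 73) and Pmel (38.6, 63.1, 32.4 and 73.8) also had it. The other melanocyte genes listed above did not. Over the locus sums of all genes the median was -0.33 for 112 over 113 and -0.41 for 119 over 73. Line 112 against line 113 gave -0.71 ± 0.17 (edgeR adjusted p = 0.00170) and line 119 against line 73 gave -0.91 ± 0.17 (edgeR adjusted p = 6.09e-06).

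No region of the table and no peak covered Runx3 P1 in any library. Over Runx3 P2 (chr4:135152209-135152709) values were 4.59 and 7.01 CPM for 112, 4.05 and 4.31 for 113, 6.15 and 3.68 for 119, 3.29 and 1.93 for 73, with a peak in 1 library. The other CG-rich starts, those of Runx1 P2 and Cbfb, had at least 15.1 CPM in every library.

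**Figure D1:**
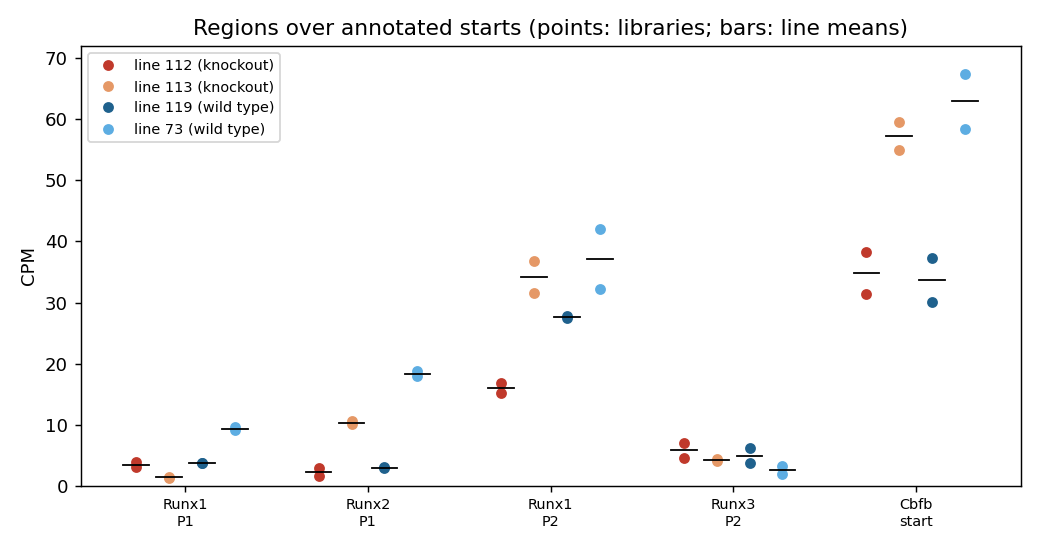
CPM of the region over each annotated start in each of the 8 libraries (points, coloured by line), with bars for the mean of the 2 libraries of a line. Runx2 P1 and the Cbfb start are high in lines 113 and 73, whereas Runx3 P2 stays at or under 7.01 CPM.

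Most of the other regions were weak. The mean CPM of the 115 regions ran from 1.32 to 47.2 with a median of 3.76, against a median of 3.505 over all regions, and 19 regions had a mean over 10 CPM. Peaks were called at 9 of the 115 regions in all 8 libraries, where 8.19% of all regions were. They were called at 9 regions in no library, where 87.8% of all regions overlapped a peak of at least 1 library. The number of the 115 regions with a peak was 26 and 11 for the libraries of 112, 31 and 28 for 113, 78 and 65 for 119, and 51 and 51 for 73. The whole peak lists held 38743 and 20387 peaks for 112, 51700 and 52250 for 113, 94906 and 85498 for 119, and 56497 and 56096 for 73. Line 119 had the deepest libraries, so these numbers also move with depth. The strongest region inside Runx2, chr17:44776866-44777857, lies 37266 bases downstream of P1 but covers the annotated start of Supt3, which is 243 bases from its centre, so its signal cannot be told apart by gene. Its line means were 31.2, 39.6, 31.5 and 50.9 CPM in lines 112, 113, 119 and 73. The strongest Runx1 region away from the starts, chr16:92653707-92655147, lies 171647 bases downstream of P1 and had 26.8, 33.6, 21.1 and 32.3 CPM. Both had peaks in all 8 libraries. At the Runx1 region, 2 of 6 pairs of lines differed, line 119 being below line 113 (113 over 119, 0.67 ± 0.19, edgeR adjusted p = 0.00255) and below line 73 (-0.61 ± 0.20, adjusted p = 0.00654).

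**Figure D2:**
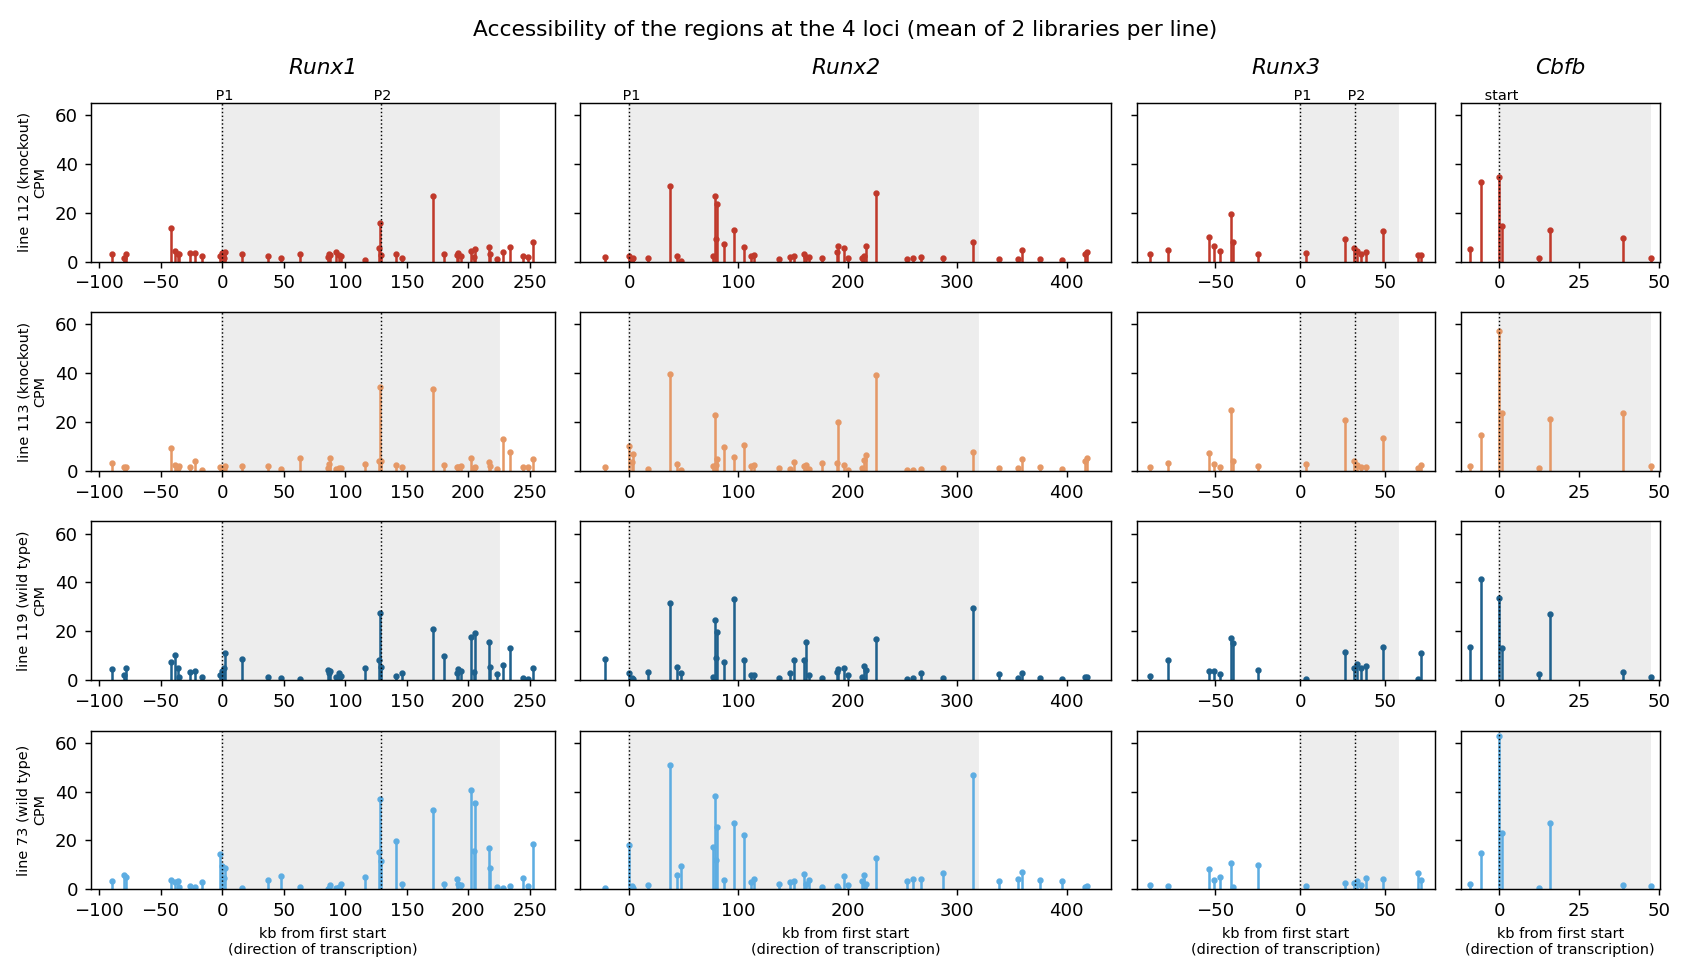
Mean CPM of the 2 libraries of each line (rows) at each region, plotted by distance in kb from the first annotated start along the direction of transcription. Shading marks the gene and dotted lines the annotated starts. At Runx1 a group of regions near the end of the gene is tall in lines 119 and 73 and short in lines 112 and 113.

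The comparison of genotypes took the line as the unit, 2 knockout against 2 wild-type lines. No region of the 4 loci passed an edgeR adjusted p of 0.05 among the 114 tested, and of all 140329 regions tested 0% passed. The smallest adjusted p was 0.146 at the 4 loci and 0.144 over all regions. Without adjustment, 5 regions were higher and 7 lower in knockout lines at p under 0.05, where 8.29% and 8.61% of all regions were. DESeq2 called 5 of the 114, which are named below, and of all 140329 regions it called 3139 higher and 3847 lower. The median log2 difference of knockout over wild type was -0.53 at the 114 regions and -0.09 over all regions. It was -0.77 at Runx1 (35 of 46 regions below 0), -0.75 at Runx2 (33 of 43), -0.25 at Runx3 (9 of 17) and -0.13 at Cbfb (5 of 8). All 4 knockout libraries were below all 4 wild-type libraries at 21 regions and above them at 9, whereas 12.1% and 13.6% of all regions showed these orders. Dct and Mlana differed between the genotypes in the same libraries, as given above, and the part of pigment state in these values was not tested.

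Pairs of single lines were tested against the spread between libraries, not between lines. The numbers called cannot be set against those of the genotype test, because the tests differ in error and power. In simulated counts the genotype test recovered 0% of 4-fold changes, and the test of line 112 against line 119 recovered 72.5%. The simulated counts were unlike: lines varied at random in the first, whereas in the second only line 112 was changed. Line 112 differed from line 119 at 40 of the 114 regions (13 higher, 27 lower), where 45.8% of all regions were called (22.2% higher, 23.6% lower), and from line 73 at 65 (25 higher, 40 lower), where 49.9% were (23.8% and 26.2%). Line 113 differed from line 119 at 62 regions (19 higher, 43 lower), where 59% of all regions were called (30.2% and 28.8%), and from line 73 at 70 (24 higher, 46 lower), where 52.2% were (25.8% and 26.4%). Within a genotype, lines 112 and 113 differed at 24 regions, 12 each way, where 23.9% of all regions were called (8.14% higher and 15.8% lower in line 112). Lines 119 and 73 differed at 69, of which 31 were higher and 38 lower in line 119, where 56.9% were called (27.5% and 29.4%). At least 1 pair differed at 107 of 114 regions, against 88.1% of all regions. The members' shares were below those of all regions in the 3 pairs without line 73 and above them in the 3 pairs with it. These pairs share lines and are not independent of each other.

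The regions at which each knockout line was called against each wild-type line, always in 1 direction, are termed separated here. Of the 114 regions, 9 were separated and lower in the knockout lines (7.89%, against 7.42% of all regions) and 4 were separated and higher (3.51%, against 7.63%). At each of the 13 the 4 knockout and 4 wild-type libraries did not overlap, which the rule that chose them from the same libraries makes likely. They were found at Runx1 (5 lower, 1 higher), Runx2 (4 lower, 2 higher) and Cbfb (1 higher), and none at Runx3.

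At Runx1 2 strong regions near the end of the gene were low in both knockout lines. The region chr16:92620612-92621171, 205183 bases downstream of P1, had 7.11 and 3.66 CPM for 112, 2.02 and 1.44 for 113, 20.1 and 18.6 for 119, 35.7 and 34.7 for 73. The mean over lines was 3.56 ± 2.58 CPM (SD, n = 2 lines) in knockouts and 27.3 ± 11.2 in wild type, a log2 difference of -2.89 ± 0.84 (edgeR adjusted p = 0.149, unadjusted 0.00310). The lines lay in the order 113, 112, 119, 73, and each neighbour differed from the next in the fit of line pairs. Nearby, chr16:92623704-92624463 had 3.90 and 5.18 CPM for 112, 5.84 and 4.55 for 113, 17.8 and 17.6 for 119, 42.2 and 38.8 for 73. Knockout over wild type was -2.58 ± 0.78 here (edgeR adjusted p = 0.151), and the 2 knockout lines did not differ by this test (-0.22 ± 0.36, adjusted p = 0.690). DESeq2 called both of these regions. Between them, chr16:92621392-92621892 was high in line 73 alone, at 16.7 and 14.3 CPM against 1.198 to 3.20 in the other 6 libraries.

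The other 3 lower regions of Runx1 were weaker. At chr16:92609234-92609791, 216562 bases downstream of P1, the knockout libraries had 3.37 to 8.26 CPM and the wild-type libraries 14.6 to 19.2. Close to P1, chr16:92823506-92824028 had 1.44 to 4.27 CPM in knockout and 7.16 to 11.4 in wild-type libraries, and chr16:92824298-92824798 had 0.674 to 1.84 and 4.05 to 5.50. At P1 itself, by contrast, the libraries of line 119 lay among those of line 112. The single Runx1 region that was separated and higher, chr16:92762158-92762722, lies 63634 bases downstream of P1 and had 8, 15, 29 and 18 counts in the knockout libraries and 3, 3, 4 and 4 in the wild-type libraries, so its wild-type level was close to the level of 3 counts.

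At Runx2 the strongest of the lower separated regions lay at the far end of the gene. The region chr17:44500183-44500931, 314070 bases downstream of P1, had 6.42 and 9.45 CPM for 112, 6.74 and 9.11 for 113, 30.0 and 28.9 for 119, 45.8 and 47.9 for 73. The mean over lines was 7.93 ± 0.00925 CPM (SD, n = 2 lines) in knockouts and 38.1 ± 12.3 in wild type, a log2 difference of -2.29 ± 0.68 (edgeR adjusted p = 0.150). The 2 knockout lines did not differ by the test (-0.02 ± 0.29, adjusted p = 0.967), whereas line 119 was below line 73 (-0.67 ± 0.18, adjusted p = 0.00164). Region chr17:44767308-44767832 had 2, 2, 3 and 1 counts in the knockout libraries and 29, 14, 36 and 35 in the wild-type libraries. Its knockout values were at or below the level of 3 counts, and it was the region with the smallest genotype p of the 4 loci (edgeR adjusted p = 0.146). DESeq2 called both of these regions too.

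The remaining separated regions of Runx2 went both ways. At chr17:44717710-44718951 values were 15.6 and 10.4 CPM for 112, 6.52 and 5.03 for 113, 32.8 and 34.0 for 119, 26.3 and 28.3 for 73, and at chr17:44770802-44771384 the knockout libraries had 1.84 to 3.37 CPM and the wild-type libraries 4.87 to 6.61. The reverse order held at chr17:44587893-44589345, 226008 bases downstream of P1, which had 33.5 and 22.9 CPM for 112, 49.5 and 29.0 for 113, 16.9 and 16.7 for 119, 12.1 and 13.5 for 73. All 8 libraries had a peak there, and the genotype difference was 1.196 ± 0.65 (edgeR adjusted p = 0.361). Beyond the gene, chr17:44396006-44396667 had 3.66 to 5.62 CPM in knockout and 0.826 to 1.77 in wild-type libraries. Inside Runx2, then, regions with opposite orders of the lines lay in 1 gene. Of the 4 lower regions, the 3 other than that at the far end were nearest to an end of Supt3.

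The separated Cbfb region lies inside the gene, at chr8:105209222-105209830, 38852 bases downstream of the start. It had 12.6 and 6.71 CPM for 112, 24.3 and 23.0 for 113, 3.07 and 3.85 for 119, 2.53 and 0.826 for 73. The mean over lines was 16.7 ± 9.88 CPM (SD, n = 2 lines) in knockouts and 2.57 ± 1.26 in wild type, a log2 difference of 2.68 ± 0.89 (edgeR adjusted p = 0.172, and called by DESeq2). Line 113 was above line 112 (112 over 113, -1.25 ± 0.27, adjusted p = 0.000416), and lines 119 and 73 did not pass the test (0.99 ± 0.48, adjusted p = 0.0747).

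**Figure D3:**
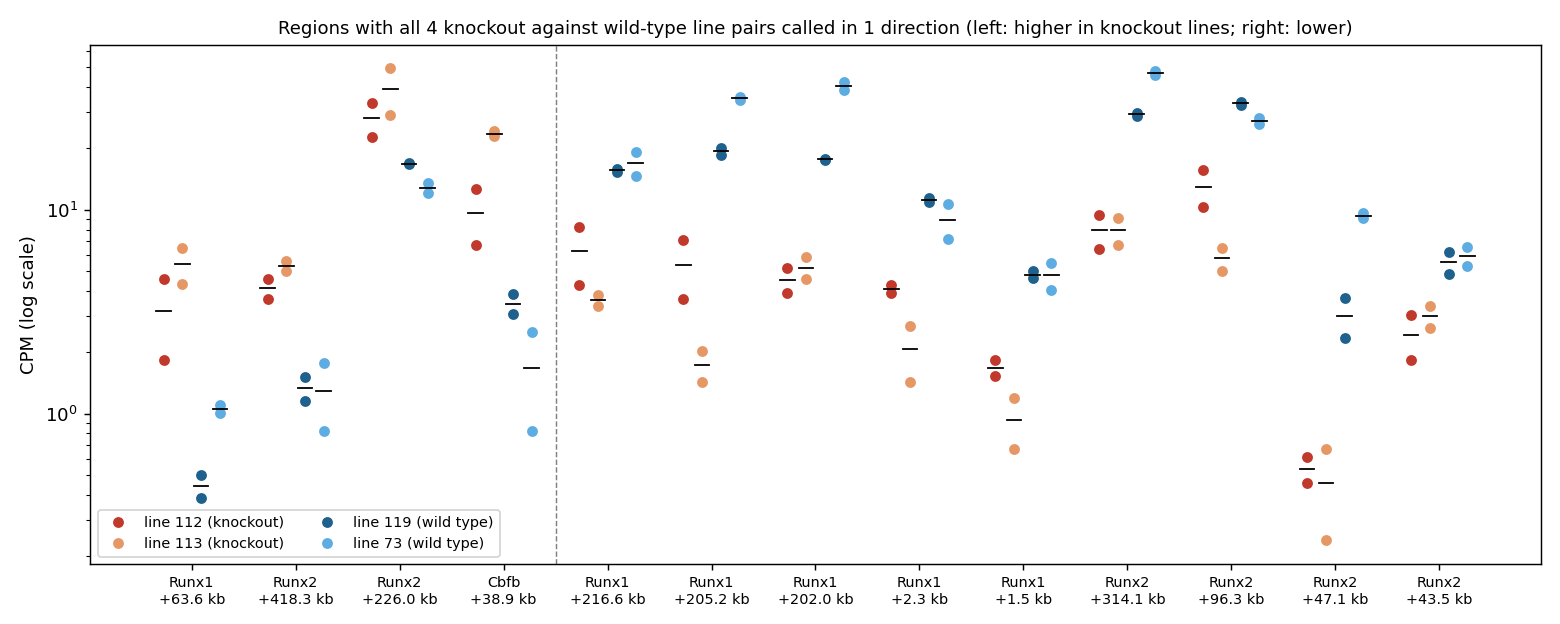
CPM on a log axis in each of the 8 libraries (points, coloured by line) at the 13 separated regions, with bars for line means and distances in kb from the first start. The 4 regions left of the dashed line are higher in the knockout lines, and the 9 to its right are lower.

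The most frequent pattern at the 4 loci set line 73 apart from every other line. Line 73 was above each other line at 24 of 114 regions (21.1%, against 13.2% of all regions), of which 12 were at Runx1, 10 at Runx2, 2 at Runx3 and none at Cbfb. It was below each other line at 14 regions (12.3%, against 10.2%), and at 8 without replicate 2 of line 73 or 9 without replicate 2 of line 119. At Runx2 chr17:44737895-44738419 line 73 had 18.97 and 15.96 CPM and the other 6 libraries 1.34 to 3.05, and line 119 over line 73 was -3.50 ± 0.33 (edgeR adjusted p = 1.52e-13). At Runx1 chr16:92683846-92685215 it had 21.5 and 18.4 CPM and the others 1.02 to 3.66. At Runx1 chr16:92827868-92828423, 2071 bases upstream of P1, line 73 had 16.2 and 12.9 CPM and the others 1.44 to 2.74. Of the 6 fibroblast genes with a region at an end, 5 were highest in line 73 (Col1a2 at 31.9 CPM against 0.591 to 3.51 in the other lines), and Pdgfra was lowest there (1.21 CPM against 1.82 to 15.8). The part of that difference in these values was not tested.

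Line 119 was above each other line at 12 regions (10.5%, against 11% of all regions) and below at 2 (1.75%, against 4.84%), the latter falling to 0 without replicate 2 of line 113 or replicate 1 of line 119 and to 1 without replicate 2 of line 119. Line 113 was above each other line at 6 (5.26%, against 7.35%) and below at 7 (6.14%, against 2.62%), the latter falling to 3 without replicate 1 of line 112 and to 4 without replicate 2 of line 119. Line 112 was above each other line at 1 (0.877%, against 1.74%; 0 without either replicate of line 119) and below at 3 (2.63%, against 1.31%; 1 without replicate 1 of line 113). Examples for line 113 were found at Runx2 in both directions. At chr17:44733801-44735062 line 113 had 5.84 and 3.83 CPM where the other lines had 18.9 to 27.3 (112 over 113, 2.29 ± 0.28, edgeR adjusted p = 6.42e-09). At chr17:44623060-44623887 it had 23.6 and 16.5 CPM, against 8.26 and 4.88 for 112, 4.87 and 4.18 for 119, and 0.759 and 0.275 for 73. At chr17:44810801-44811385, 3534 bases downstream of P1, line 113 had 37 and 22 counts and the other libraries 1 to 6.

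**Figure D4:**
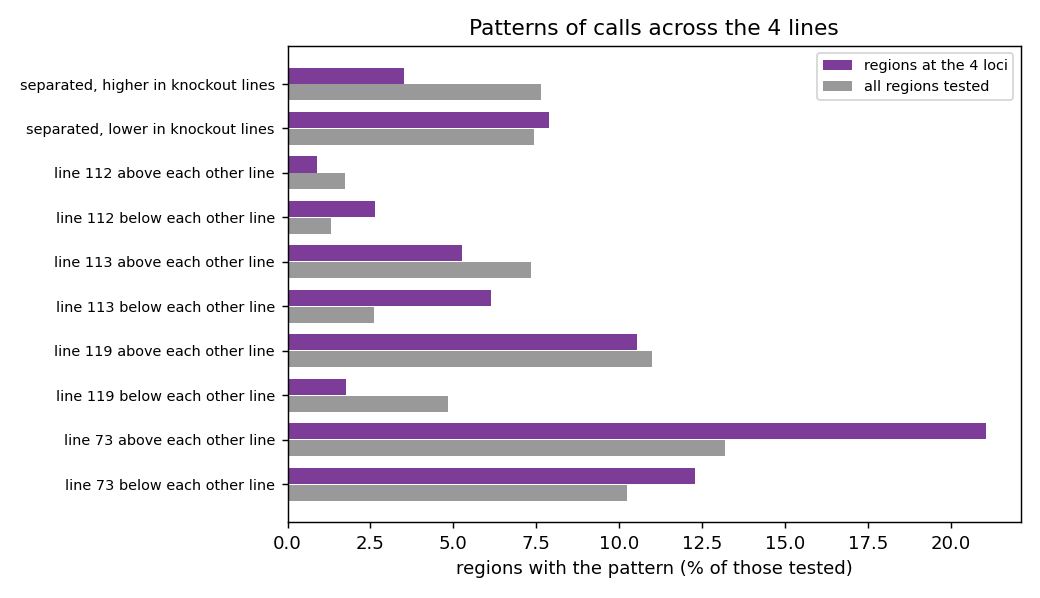
Percentage of tested regions with each pattern of calls across the 4 lines, for the 114 regions of the 4 loci (purple) and for all 140329 regions (grey). The bar for line 73 above each other line reaches 21.1% at the loci and 13.2% over all regions.

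In its locus sum, given below, Runx3 ran against the other Runx genes in line 73. Single regions showed less contrast. Line 73 was below each other line at 6 regions of Runx1, 3 of Runx2, 5 of Runx3 and 0 of Cbfb. At Runx3 line 113 had the lowest mean at 8 of 17 regions and line 73 at 6. The strongest Runx3 region, chr4:135079476-135080314, 40750 bases upstream of P1, had 20.9 and 17.99 CPM for 112, 22.9 and 26.8 for 113, 17.7 and 17.1 for 119, 11.9 and 9.63 for 73, and line 73 was below each other line. At chr4:135146568-135147174, between P1 and P2, values were 8.95 and 9.76 CPM for 112, 21.1 and 20.4 for 113, 9.99 and 12.7 for 119, 2.28 and 2.75 for 73. Line 113 was highest and line 73 lowest, and lines 112 and 119 did not differ by the test (-0.27 ± 0.27, edgeR adjusted p = 0.422). Downstream of P2, chr4:135168488-135169548 had 11.02 to 16.2 CPM in lines 112, 113 and 119 and 4.30 and 4.40 in line 73. The wild-type lines were far apart at chr4:135080610-135081110, with 15.2 and 15.1 CPM in line 119 and 1.77 and 0.550 in line 73. Line 73 had the highest mean at 3 of the 17 regions. It was above each other line at chr4:135095557-135096221 and chr4:135189539-135190054, with means of 10.1 and 6.89 CPM, but not at chr4:135073399-135073925, with 4.90 CPM against 4.47 in line 112.

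Around Cbfb the regions near the start followed lines rather than genotype. Upstream of it, chr8:105164364-105165714 had 47.7 and 17.7 CPM for 112, 13.3 and 16.1 for 113, 40.0 and 43.2 for 119, 14.2 and 15.4 for 73. The 2 libraries of line 112 disagreed here, so no order involving that line can be read from it. The second region at the start, chr8:105171250-105171803, had line means of 14.7, 23.7, 12.98 and 23.2 CPM in lines 112, 113, 119 and 73, with lines 113 and 73, those of the higher p numbers, high as at the start itself. At chr8:105186113-105187009, 15887 bases downstream, line 112 was lowest with 17.0 and 9.45 CPM, the other libraries having 19.9 to 31.1.

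Summed over its regions, each locus gives 1 value a library. For Runx1 the sums were 200.05 and 190.0 CPM for 112, 209 and 174 for 113, 277 and 274 for 119, 386 and 341 for 73. All wild-type sums were above all knockout sums, and the lines differed in each of the 4 pairs across genotypes. The share of all genes whose sums do not overlap between genotypes was not counted. Of all single regions, 12.1% had every knockout library below every wild-type library and 13.6% had the reverse. Line 112 over line 119 was -0.50 ± 0.13 (log2, SE) (edgeR adjusted p = 0.000895) and line 112 over line 73 was -0.90 ± 0.13 (adjusted p = 6.06e-09). Line 113 over the same lines was -0.52 ± 0.13 (adjusted p = 0.000253) and -0.92 ± 0.13 (adjusted p = 1.95e-09). Each of these 4 calls was made under every alternative run. With lines as units the difference was -0.73 ± 0.40 and did not pass (adjusted p = 0.571, where 1.72% of 17838 genes were called, 0.712% higher and 1% lower).

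For Runx2 the sums were 259 and 218 CPM for 112, 270.0 and 234 for 113, 287 and 296 for 119, 405 and 372 for 73, again with no overlap of the genotypes. As for Runx1, no share over all genes was counted for this order. Line 73 was above line 112 (112 over 73, -0.70 ± 0.13, adjusted p = 2.16e-06) and line 113 (-0.63 ± 0.13, adjusted p = 2.15e-05), while the differences of line 119 from lines 112 and 113 did not pass (-0.29 ± 0.13 and -0.21 ± 0.13, adjusted p = 0.0579 and 0.141). These 2 depend on the setting: DESeq2 called both (-0.32 and -0.58), as did a filter at a mean of 50 counts (-0.23 and -0.72) and leaving out replicate 1 of line 112 (-0.43 and -0.20). The difference of line 112 from line 73 was not called with the filter at a mean of 50 counts (-0.18, edgeR adjusted p = 0.124). The genotype difference was -0.47 ± 0.39 (adjusted p = 0.954). For Runx3 the sums were 93.4 and 124 CPM for 112, 96.0 and 102 for 113, 112 and 120.1 for 119, 75.9 and 71.0 for 73. Line 73 was lowest, by 0.56 ± 0.15 against line 112 (112 over 73, edgeR adjusted p = 0.000636) and 0.66 ± 0.14 against line 119 (119 over 73, adjusted p = 3.56e-05). Line 113 over line 73 was 0.43 ± 0.15 (adjusted p = 0.00986) and was not called without replicate 2 of line 113 (0.37) or of line 73 (0.38). The genotype difference of Runx3 was 0.11 ± 0.46 (adjusted p = 1). For Cbfb the sums were 140.2 and 87.2 CPM for 112, 145 and 146 for 113, 129 and 143 for 119, 123 and 144 for 73, and the genotype difference was -0.04 ± 0.43 (adjusted p = 1). The genotype differences of Runx3 and Cbfb lay within the spread of the lines.

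In all, 12 of the 24 differences of locus sums between 2 lines passed. Of all genes, 47.9% were called for 112 over 119 (23.8% higher, 24.2% lower), 64.4% for 112 over 73 (16.4%, 48%), 68.8% for 113 over 119 (50.1%, 18.7%) and 50.9% for 113 over 73 (23.9%, 27%). Within a genotype 57.3% were called for 112 over 113 (12.1%, 45.2%) and 69.5% for 119 over 73 (17.4%, 52%). The direction of these calls depends on the scaling: DESeq2 called 3616 genes higher and 4773 lower for 113 over 119, 4143 and 3460 for 112 over 73, 3039 and 2041 for 112 over 113, and 4706 and 3650 for 119 over 73. The median over all genes was itself shifted, by -0.37 for line 112 over line 73, 0.38 for 113 over 119, -0.33 for 112 over 113 and -0.41 for 119 over 73 on the log2 scale, and by 0.02 and -0.02 in the remaining pairs. Measured against those medians, Runx1 and Runx2 in line 119 over line 73 (-0.40 ± 0.13 and -0.42 ± 0.13) were close to the shift of all genes, and DESeq2 did not call them (-0.0007 and -0.0168, DESeq2 adjusted p = 0.997 and 0.907). Per kb of covered sequence the loci had mean levels of 8.69 CPM at Runx1, 9.76 at Runx2, 9.51 at Runx3 and 23.2 at Cbfb. Weak regions in the same 10 Mb window, a measure of shifts shared by a stretch of chromosome, deviated from the mean of the lines by 0.20, -0.19, -0.04 and -0.27 (log2) in lines 112, 113, 119 and 73 near Runx1 and by 0.43, -0.02, -0.31 and -0.41 near Runx3. With these taken off, the genotype difference of Runx1 was -0.89 and that of Runx3 turned to -0.44. The median over all genes also moved, from -0.01 to -0.16, so part of these moves was shared by all genes.

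**Figure D5:**
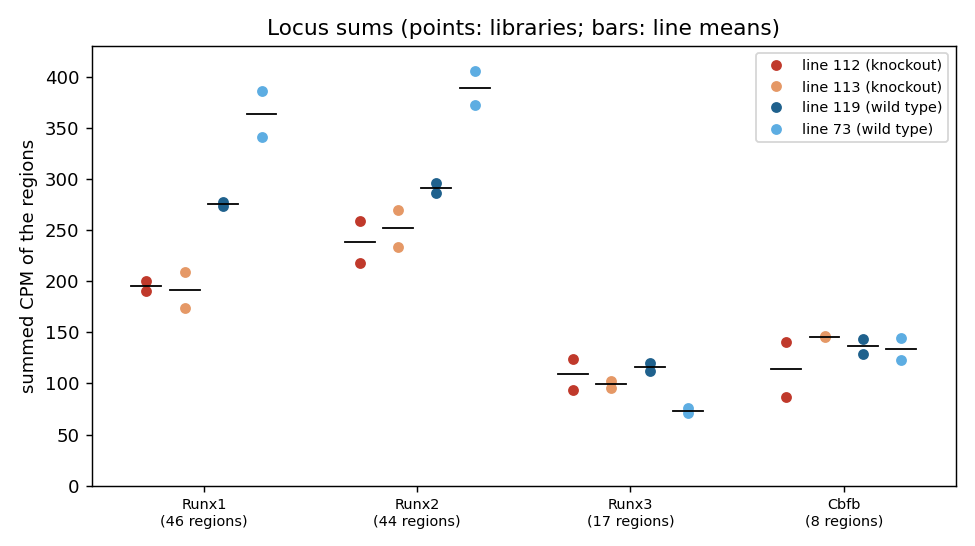
Summed CPM of the regions of each locus in each of the 8 libraries (points, coloured by line), with bars for line means. Line 73 is highest at Runx1 and Runx2 and lowest at Runx3, and 1 library of line 112 lies apart at Cbfb with 87.2 CPM.

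Of genes that act with RUNX proteins, a list of 20 co-activators, co-repressors and DNA-binding partners was summed in the same way. None passed the genotype test, 13 of 20 being above 0 with a median of 0.06 (all genes, -0.01). The smallest p-values were those of Crebbp, a histone acetyltransferase (0.64 ± 0.48, edgeR adjusted p = 0.868), Hipk2, a kinase that phosphorylates RUNX1 (0.49 ± 0.40, adjusted p = 0.934), and Tle4, a Groucho co-repressor (0.45 ± 0.42, adjusted p = 1). Hipk2 had 382, 214, 181 and 246 CPM in lines 112, 113, 119 and 73, and Tle4 had 139, 248, 141 and 144. Each was high in 1 knockout line only. Of 22 genes known as RUNX targets 20 were tested and none passed, with a median of -0.12. Il3 and Cd4 were not tested. The smallest p-values were those of Mmp13, a collagenase of cartilage and bone, with 9.12, 4.55, 29.1 and 16.8 CPM in lines 112, 113, 119 and 73 (-1.79 ± 0.64, adjusted p = 0.136), of Ibsp, a bone matrix protein (-1.36 ± 0.68, adjusted p = 0.473), and of Dlx5, a homeobox factor of bone (1.07 ± 0.56, adjusted p = 0.514). Ibsp had 6.30, 4.98, 25.6 and 2.78 CPM in the same lines, so only line 119 was high. Dlx5 had 47.4, 35.6, 17.5 and 21.9 CPM. In the line pairs the partners called higher and lower numbered 3 and 4 for 112 over 119, 2 and 9 for 112 over 73, 13 and 0 for 113 over 119, 5 and 2 for 113 over 73, 2 and 17 for 112 over 113, and 1 and 9 for 119 over 73. The targets numbered 5 and 6, 2 and 9, 10 and 5, 3 and 9, 4 and 6, and 3 and 10 in the same order. These counts rest on the TMM scaling, as do the splits over all genes.

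The genes whose locus sums varied most like each member over the 8 libraries were found from the root mean square difference of centred log2 CPM, among genes with at least 5 regions. They were Cyb561, Sik3 and Tomm20 for Runx1 (0.0727 to 0.0800, where Runx1 itself had a range of 1.15), Ntn4, C1qtnf3 and Ghr for Runx2 (0.0490 to 0.0710, range 0.895), Cfap77, Scube2 and Gm5294 for Runx3 (0.108 to 0.124, range 0.805), and Hsd17b12, Sms and Lrrc8c for Cbfb (0.0743 to 0.0820, range 0.744).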

How the data were processed

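ATAC-seq was done on 8 libraries of 4 lines. The authors deposited whole-number counts for 148664 regions (501 to 3708 bp) and a peak list per library; its peaks carry the authors' ratio of signal to background and their −log10 q, and the text uses peak positions only. Bowtie2 2.2.4, Picard 1.118, MACS2 2.1.1.20160309 and the build mm10 (GRCm38) are named, per the submitters' processing notes. The handling of duplicates, the unit counted (reads, fragments or cuts) and any shift for the transposase are not given in the sources used here, so counts may include duplicates. The count table had 0 columns of other samples.

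Genes came from RefSeq GRCm38.p6 (21883 protein-coding genes placed). Regions were filtered with filterByExpr on counts summed per line (minimum count 10, minimum total 15), leaving 140329, and scaled by TMM. The genotype test was edgeR 4.0.16 (R 4.3.3, glmQLFit robust, glmQLFTest, two-sided) on counts summed per line. Line pairs were contrasts in a fit of the 8 libraries. Benjamini-Hochberg adjustment ran over all regions or genes, with a threshold of 0.05. Standard errors are the log2 difference over the square root of F. Alternatives were DESeq2 1.42.0, other scalings, filters and assignments, a regional offset, libraries as units, replicate blocks and leaving out each library.

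Regions named by rule were, per gene, the strongest within 1 kb of a gene end, the 3 strongest others, those with the smallest genotype p in each direction, and the one with the largest range for each line as the highest; separated regions and some of the single-line regions were chosen after their values were seen. The members and lists were chosen with earlier results of these data known. On simulated counts of 30000 regions with 200 changed, the genotype test recovered 0% at 2-fold and 4-fold and 49.5% at 16-fold, and the test of line 112 against 119 recovered 17%, 72.5% and 91%. Random variation between lines was simulated for the genotype test only, so the recoveries of the 2 tests rest on unlike counts.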

Additional observations from a re-analysis of the deposited data

Results flagged for a closer look

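Of 80 sets of 4 libraries examined (the 36 regions named by rule and the 4 locus sums, in each genotype), 3 held a value set well apart from its neighbours. Chance alone does this in about 1 of 20 sets of 4 independent values. Each set here holds 2 libraries from each of 2 lines, so that rate need not apply. The Cbfb locus sum was 87.2 CPM in replicate 2 of line 112 and 140.2 to 146 CPM in the other knockout libraries. The Cbfb region chr8:105164364-105165714 had 47.7 CPM in replicate 1 of line 112 and 13.3 to 17.7 in the others. The Runx2 region chr17:44737895-44738419 had 3.05 CPM in replicate 2 of line 112 and 1.92 to 2.06 in the others. All 3 lie in line 112, whose replicate 2 was the shallowest library.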

How the results depend on the processing

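With lines as units 0 regions of the 4 loci passed the genotype test. DESeq2 called 5, edgeR with libraries as units 21, and the same with the replicate block 15. Of all 140329 regions these settings called 3139 higher and 3847 lower, 15891 and 15939, and 12230 and 11990. Of the 36 regions named by rule these settings called 5, 11 and 9. Some of the 36 were named for the smallest genotype p in the same counts, so these numbers are no separate support. The Runx1 locus sum passed with libraries as units (-0.72, edgeR adjusted p = 0.0177) and with the block (-0.73, adjusted p = 0.0364). Replicate numbers did not pair the libraries (correlations of deviations -0.0367 to 0.00388), and libraries of 1 line are not separate lines.

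Counts of called regions fell under DESeq2 to 25 (line 112 over 119), 43 (112 over 73), 12 (112 over 113) and 42 (119 over 73), and with a mean of at least 50 counts to 9, 13, 7 and 10, and to 10 and 13 for line 113 over 119 and over 73. Over all regions DESeq2 called 14525 higher and 21762 lower for 112 over 119, and 21755 and 25547 for 112 over 73. It called 3387 and 13085 for 112 over 113, and 28310 and 24819 for 119 over 73. At 50 counts, of all 24137 regions tested, 5397 were called higher and 6811 lower for 112 over 119. The numbers were 7419 and 6128 for 112 over 73, 4344 and 3113 for 112 over 113, and 8193 and 6926 for 119 over 73. They were 7168 and 7527 for 113 over 119, and 7641 and 6682 for 113 over 73. Inside the genes only, the counts at the 4 loci were 25 for 112 over 119 and 43 for 119 over 73. Without single libraries the count for 112 over 113 was 15 to 25. Separated regions that were higher numbered 1 under DESeq2, 1 at 50 counts and 2 to 6 without single libraries, 2 being reached without replicate 1 of line 112 or replicate 2 of line 73. Lower ones numbered 5 at 50 counts. Regions with line 73 above each other line numbered 13 under DESeq2 and 2 at 50 counts, those with it below numbered 8 and 4, those with line 113 below 4 and 5 (11 with total counts), and those with line 119 above 7 and 2. The filters on counts and position leave fewer regions to call, and how many of the 4 loci remained was not counted. For no alternative were the shares of all regions with the separated or single-line patterns counted. These pattern counts therefore cannot be set against the shares of the main fit.

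The genotype difference of Cbfb turned to 0.0202 with total counts, 0.0335 with regions under a peak and 0.16 inside the gene, and ranged from -0.22 to 0.0668 without single libraries; that of Runx3 turned to -0.44 with the regional offset and ranged from -0.0095 to 0.22. The cause was not tested. Between lines, these small differences of locus sums changed sign. Cbfb 112 over 119 ranged from -0.65 to 0.0016 without single libraries. Cbfb 112 over 73 was 0.10 with total counts, 0.14 with DESeq2, 0.29 at 50 counts, and -0.62 to 0.15 without single libraries. Cbfb 113 over 119 was -0.10, -0.27 and -0.41 (called) under the first 3 of these and 0.60 (called) inside the gene. Cbfb 112 over 113 was 0.20 at 50 counts and was not called in most alternatives, at -0.0105 without replicate 2 of line 112, -0.0194 with total counts and -0.015 with DESeq2, and at -0.34 to -0.32 under peaks or without single libraries of the other lines. Cbfb 119 over 73 was -0.0008 under peaks, -0.19 inside the gene, and -0.0798 to 0.15 without single libraries. Runx1 112 over 113 was called with total counts (0.37), DESeq2 (0.37) and 50 counts (0.60), and was -0.063 inside the gene and -0.0802 to 0.18 without single libraries. Runx2 112 over 113 was 0.26 with total counts, 0.27 with DESeq2 and 0.49 at 50 counts (each called), and -0.22 to 0.084 without single libraries. Runx3 112 over 113 was called under the same 3 (0.47, 0.48 and 0.71), and was -0.0083 within 50 kb, -0.15 inside the gene, and -0.0399 to 0.32 without single libraries. Runx3 112 over 119 was 0.0466 with total counts, 0.0128 under peaks, and -0.35 to 0.10 without single libraries. For line 119 over 73 at 50 counts, Runx1 was 0.0698 and Runx2 0.0537. Runx2 113 over 119 was also called with total counts (-0.41), without replicate 2 of line 112 (-0.30) and inside the gene (-0.29), and 112 over 119 with RLE factors (-0.36) and within 50 kb (-0.33). Runx3 113 over 119 was called with total counts (-0.42), DESeq2 (-0.60), 50 counts (-0.73) and without replicate 2 of line 112 (-0.31). Of single regions, the genotype difference at the Cbfb start turned to 0.0092 with total counts and 0.0276 under peaks, and that at chr8:105171250-105171803 to -0.20 with the offset. Without single libraries these ranged from -0.13 to 0.0422 and from -0.0959 to 0.22, that at chr8:105164364-105165714 from -0.82 to 0.11, and that at chr16:92592066-92592910 from -0.27 to 0.0579.

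The 2 lines a genotype limit the genotype test, which recovered no 4-fold changes in simulated counts. Most regions are weak, and replicate 2 of line 112 has 2697546 counts. The median difference of the loci between genotypes was -0.25 at 50 counts and -0.78 with the regional offset, and -0.66 to -0.49 without single libraries. Over all regions the median was 0.04, -0.23, and -0.11 to -0.06 under the same settings, against -0.09 in the main fit.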
